A study of Mus musculus with 12 samples.

Results

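The FACIT and short-chain collagens described here are 10 of the 32288 genes and transgenes in the count table, chosen by name: *Col12a1*, *Col14a1*, *Col16a1*, *Col20a1* and *Col22a1*, which encode FACIT collagens, *Col8a1* and *Col8a2*, which encode both chains of the short-chain network collagen VIII, *Col13a1* and *Col23a1*, which encode transmembrane collagens, and *Col26a1*, which encodes a collagen with an EMI domain. The name of the group therefore fits 7 of the 10 genes, and the other 3 belong to further non-fibrillar classes. Bulk RNA-seq gave the expression of these genes in 12 libraries of mGFP+ cells sorted from the metaphysis of mouse femurs and tibias, with cells carrying CD31, CD45 or TER119 excluded. The juvenile (3 weeks, 4 libraries) and adult (8 weeks, 4 libraries) groups came from *Osx-CreERT2*; *mTmG* mice, and each library pooled 2 male mice, whose cells were sorted 2 days after the last of 3 daily tamoxifen doses. The *c-Myc*-induced group (2 libraries) additionally carried *LSL-tTA* and *Col1a1*::TetO–*c-Myc*, and the *c-Myc* + *R172H* group (2 libraries) also carried *Trp53-LSL-R172H*. These induced mice were of both sexes and were taken 7 days after tamoxifen, at 5 weeks of age by the protocol and 3 weeks by the sample titles. All 4 groups share the tamoxifen-activated Cre driven by *Osx* (*Sp7*), an osteoblast lineage gene, and the reporter that turns labelled cells to membrane GFP. The labels do not say which animals gave each induced library. *Xist*, the RNA of the inactive X chromosome in females, was at 0.0457 and 234 CPM in *c-Myc* replicates 1 and 2 and at 0.183 and 212 CPM in *c-Myc* + *R172H* replicates 1 and 2, against at most 1.24 CPM in the control libraries, so replicate 1 of each induced group was at the level of the male controls and replicate 2 held female cells, and they were not repeat runs of 1 animal.

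FACIT collagens are fibril-associated collagens with interrupted triple helices. They do not form fibrils alone but lie on the surface of fibrils built by collagens such as collagen I, or at the border between matrices, where they help to set the spacing of fibrils and their links to other molecules. Collagen XII, the product of *Col12a1*, is a large FACIT of tendon, ligament, periosteum and bone, and in bone it is known for its part in the order of osteoblasts and their contacts. Collagen XXII is best known from tissue junctions, such as that of muscle and tendon, and collagen VIII from the matrix beneath endothelia.

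RefSeq promoter windows, covering 250 bases before and 50 after the start site on GRCm38.p6, were available for 6 of the 10 members: *Col16a1*, *Col20a1*, *Col8a1*, *Col8a2*, *Col13a1* and *Col23a1*. Of these 6, the windows of *Col8a1*, *Col8a2*, *Col13a1* and *Col16a1* are shown because these genes carry more of the differences below than *Col20a1* and *Col23a1*. No window was available for the leading members *Col12a1* and *Col22a1*. The windows shown run 5′ to 3′ on the strand of the gene. Capitals mark letters found by a search of both strands for the E-box (CACGTG), the RUNX motif (TGTGGT), the GC box (GGGCGG, or CCGCCC on the other strand), the TATA box (TATAAA) and the GLI motif (GACCACCCA). The *Col8a1* window is chr16:57754688-57754987 on the minus strand, that of *Col8a2* is chr4:126286544-126286843 on the plus strand, that of *Col13a1* is chr10:61979059-61979358 on the minus strand, and that of *Col16a1* is chr4:130047590-130047889 on the plus strand.
Col8a1: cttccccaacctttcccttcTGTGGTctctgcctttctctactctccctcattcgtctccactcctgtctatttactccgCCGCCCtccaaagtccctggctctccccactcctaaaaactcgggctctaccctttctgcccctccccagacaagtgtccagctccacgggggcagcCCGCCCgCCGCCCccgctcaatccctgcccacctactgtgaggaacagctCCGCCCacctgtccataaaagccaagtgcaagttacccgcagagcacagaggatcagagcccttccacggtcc
Col8a2: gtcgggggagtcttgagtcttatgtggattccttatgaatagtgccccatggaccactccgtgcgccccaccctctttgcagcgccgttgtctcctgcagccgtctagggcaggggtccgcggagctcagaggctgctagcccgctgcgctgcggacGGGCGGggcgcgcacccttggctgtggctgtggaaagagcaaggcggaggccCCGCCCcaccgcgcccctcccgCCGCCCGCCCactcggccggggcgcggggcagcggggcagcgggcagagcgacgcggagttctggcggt
Col13a1: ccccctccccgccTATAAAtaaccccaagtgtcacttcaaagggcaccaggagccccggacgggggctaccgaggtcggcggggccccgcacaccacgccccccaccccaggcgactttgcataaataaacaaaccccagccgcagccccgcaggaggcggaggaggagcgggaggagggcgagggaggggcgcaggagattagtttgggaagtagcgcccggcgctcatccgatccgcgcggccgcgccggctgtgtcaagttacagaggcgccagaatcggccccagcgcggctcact
Col16a1: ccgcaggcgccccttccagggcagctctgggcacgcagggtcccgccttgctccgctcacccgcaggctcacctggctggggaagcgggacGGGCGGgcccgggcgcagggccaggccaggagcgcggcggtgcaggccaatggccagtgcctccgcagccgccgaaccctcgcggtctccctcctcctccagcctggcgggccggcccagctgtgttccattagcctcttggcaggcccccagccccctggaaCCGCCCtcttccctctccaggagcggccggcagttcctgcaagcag
In the *Col8a1* window, capitals mark 1 RUNX match and 4 GC boxes. In *Col8a2* they mark 4 GC boxes, of which the 2 nearest to the start site overlap and appear as 1 run. The *Col13a1* window holds TATAAA at -237, far upstream of the usual place of a TATA box, and no GC box in these letters. The *Col16a1* window holds GC boxes at -159 and at 5 bases past the start site. Of all 32851 promoter windows of this length, 35.7% hold a GC box, 16.8% the RUNX letters, 13.6% TATAAA, 7.15% the E-box and 0.253% the GLI letters. None of the 6 member windows holds the E-box or the GLI letters. A match is a description of the sequence and no evidence of binding. The windows of *Col8a2* (71.7% G + C, 32 CpG), *Col13a1* (68.0%, 29) and *Col16a1* (74.3%, 24) were richer in G + C and CpG than the median window (52.7%, 7), *Col8a1* was closer to it (60.3%, 12), and the *Col20a1* window held 50.0% G + C and 1 CpG.

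The sorted cells carried osteoblast transcripts in every library, with 7 osteoblast markers summing to 3192–6003 CPM (counts scaled by the TMM-adjusted library size) in juvenile and adult libraries and to 1235–1703 CPM in both induced groups. Markers of growth plate chondrocytes were also present. Their 10 genes summed to 8430–24916 CPM in juvenile, 32736–119383 in adult, 338–531 in *c-Myc* and 161–163 in *c-Myc* + *R172H* libraries, with none of the 10 at or under 3 counts in any library. Tendon, ligament and periosteal markers (8 genes) summed to 46.7–58.9, 88.0–224, 13.6–16.6 and 12.5–13.4 CPM in the same order of groups, and the defining tendon genes *Tnmd* and *Kera* had 0 to 4 and 0 counts. Marrow stromal markers (6 genes) summed to 278–376, 354–614, 82.9–159 and 64.9–85.0 CPM. Endothelial markers (5 genes) summed to at most 1.49 CPM, skeletal muscle (5 genes) to at most 3.61, Schwann cell (3 genes) to at most 6.29 and haematopoietic (6 genes) to at most 11.1. Total counts lay between 9066154 and 15684412 per library, and 3 counts, taken as the limit of detection, corresponded to 0.137–0.417 CPM. The *Myc* transcript, the target of the induction, was at 39.8–52.2 CPM in juvenile, 44.7–51.2 in adult, 624 and 658 in *c-Myc*, and 639 and 748 in *c-Myc* + *R172H* libraries.

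Per kilobase of exon, *Col22a1* and *Col12a1* were the leading members in every group. In juvenile *Osx*+ osteoblasts, *Col22a1* had the highest level (191 ± 12.6 CPM per kb, SD, n = 4), followed by *Col12a1* (108 ± 18.03), *Col13a1* (39.5 ± 4.12), *Col16a1* (31.6 ± 1.19), *Col8a1* (9.41 ± 2.32) and *Col8a2* (1.43 ± 0.277). The ranges of neighbours in this order did not overlap. *Col23a1*, *Col26a1* and *Col20a1* lay between 0.0608 and 0.864 CPM per kb, and there the ranges of neighbours overlapped. *Col14a1*, which encodes a FACIT of collagen I fibrils in skin and tendon, was not detected above 3 counts in any library. It had 0 counts in 9 libraries and 1 count in each of adult replicate 4 and both *c-Myc* libraries.

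**Figure D1:**
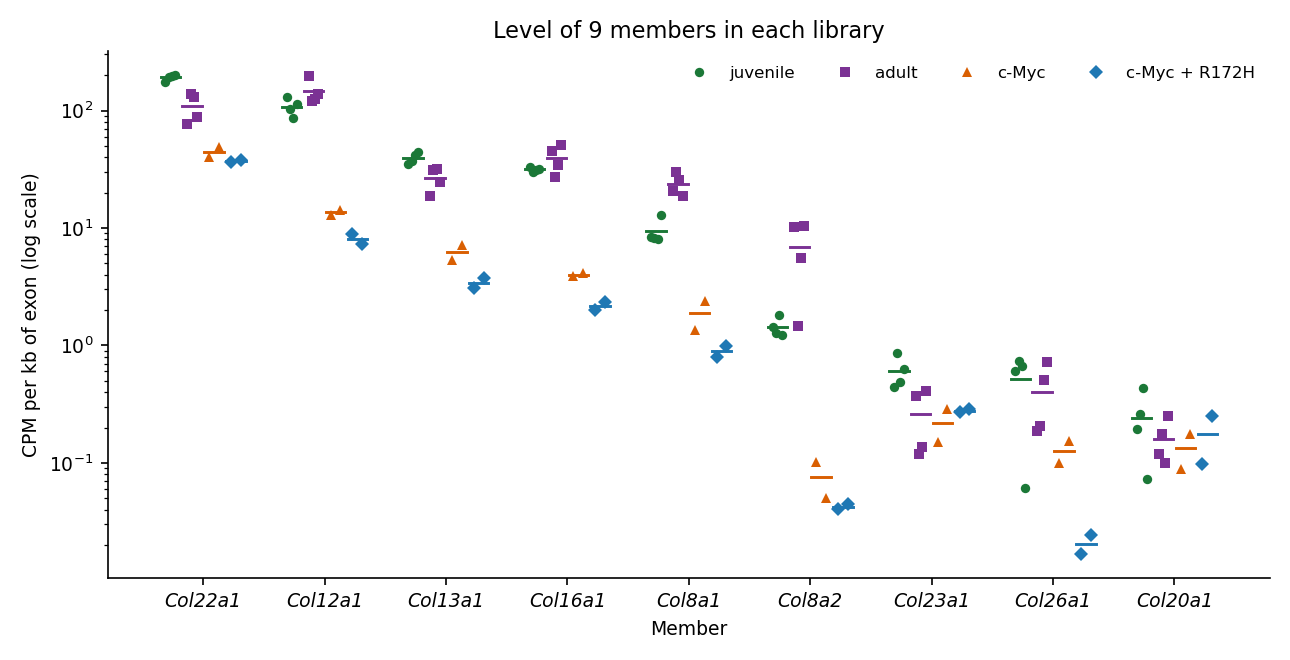
Level of 9 members in each library, in CPM per kb of exon on a log scale, with 1 point per library and a bar at each group's mean; *Col14a1* had at most 1 count per library and is not drawn. The 6 members from *Col22a1* to *Col8a2* are lower in all 4 induced libraries than in every juvenile and adult library. The share of all genes that separate in this way was not counted.

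In adult *Osx*+ osteoblasts the order of the leading pair was turned. *Col12a1* (145 ± 35.4 CPM per kb, SD, n = 4) stood above *Col22a1* (109 ± 30.3), although the ranges of the pair overlapped, as did those of *Col16a1* (39.5 ± 11.01) and *Col13a1* (26.6 ± 6.10), and of *Col13a1* and *Col8a1* (23.7 ± 5.00). In the induced groups *Col22a1* led again, at 44.4 ± 6.31 CPM per kb in *c-Myc* (SD, n = 2) and 37.2 ± 1.22 in *c-Myc* + *R172H* (SD, n = 2), while *Col12a1* was at 13.6 ± 0.916 and 8.09 ± 1.11. Next came *Col13a1* at 6.20 ± 1.30 and 3.43 ± 0.460, and *Col16a1* at 3.98 ± 0.167 and 2.18 ± 0.250.

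The makeup of the summed level of the 10 members followed these shifts. The sum of group means was 382 CPM per kb in juvenile, 351 in adult, 70.6 in *c-Myc* and 52.3 in *c-Myc* + *R172H* osteoblasts. *Col22a1* accounted for 50.0%, 30.9%, 62.9% and 71.2% of it in this order, and *Col12a1* for 28.2%, 41.4%, 19.2% and 15.4%. The ratio of *Col12a1* to *Col22a1* per kilobase is a value within a library and does not depend on how libraries are scaled. It was 0.746, 0.536, 0.437 and 0.558 in juvenile replicates 1 to 4, 2.55, 0.871, 0.963 and 1.57 in adult replicates 1 to 4, 0.324 and 0.291 in the *c-Myc* libraries, and 0.244 and 0.192 in the *c-Myc* + *R172H* libraries. The 4 groups did not overlap in this ratio, with adult libraries the highest and *c-Myc* + *R172H* the lowest, and it was looked at after the levels had been seen, so no test is given.

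**Figure D2:**
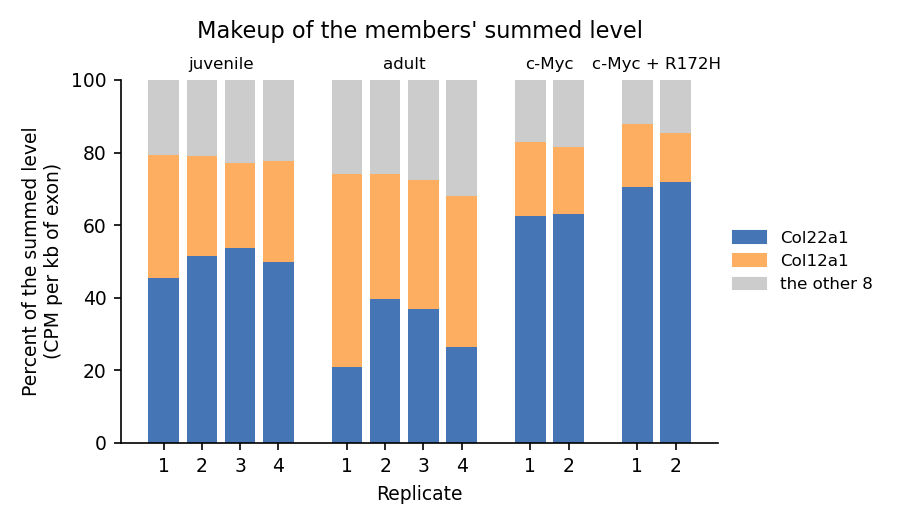
Percent of the members' summed level (CPM per kb of exon) taken by *Col22a1*, by *Col12a1* and by the other 8 members, with 1 bar per library. *Col22a1* takes 45.4% to 53.6% in juvenile libraries, 20.9% to 39.6% in adult libraries and 62.6% to 71.8% in the 4 induced libraries.

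The comparison of juvenile with adult *Osx*+ osteoblasts addressed how these genes differ with age in the metaphysis. *Col22a1* and *Col13a1* were higher in juvenile osteoblasts, and *Col8a1* was lower. Of the 10 members, 8 passed the filter on low counts and 2 (*Col14a1* and *Col20a1*) did not. Among the 8, 2 rose and 1 fell in juvenile over adult, where 1.89% of 11345 genes tested rose and 3.23% fell (edgeR's quasi-likelihood test, Benjamini-Hochberg adjusted p under 0.05). The median log2 fold change was 0.01 over the 8 members and 0.00 over all genes tested. Where the juvenile and adult libraries are said below not to overlap, the share of all genes that separate so was not counted.

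*Col22a1* was at 1596, 1769.7, 1819 and 1858 CPM in juvenile replicates 1 to 4, and at 713, 1267, 1207 and 808 CPM in adult replicates 1 to 4. Every juvenile library stood above every adult library, and adult replicates 1 and 4 were the lowest. The juvenile mean was 1.76-fold the adult mean, and the fitted log2 fold change was 0.81 (SE 0.17, adjusted p = 0.0117 by edgeR's quasi-likelihood test). It passed the test in all 18 alternative settings tried, with log2 fold changes from 0.51 to 0.95. *Col22a1* lies on chr15:71795795-72034227 (GRCm38, minus strand), and its exons overlap an antisense gene, *Gm16308*, that had 0 counts in these libraries.

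*Col13a1* encodes a transmembrane collagen of cell contacts, known from the neuromuscular junction and from bone. It was at 161, 171.6, 193 and 203 CPM in juvenile replicates 1 to 4 and at 86.8, 144, 145 and 113 CPM in adult replicates 1 to 4. The groups did not overlap, and the ratio of the means was 1.49. The fitted log2 difference was 0.57 (SE 0.15, adjusted p = 0.0384 by edgeR's quasi-likelihood test). This call was lost without juvenile replicate 1 (adjusted p = 0.0595), 2 (0.0723), 3 (0.0933) or 4 (0.119), and without adult replicate 1 (0.0994) or 4 (0.109), with log2 fold changes between 0.44 and 0.62. It was also lost with library totals in place of TMM (log2 fold change 0.32, adjusted p = 0.197), where 1 member rose and 2 fell, *Col22a1* against *Col8a1* and *Col12a1*.

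*Col8a1*, which encodes a chain of collagen VIII, was at 65.3, 64.8, 63.7 and 101 CPM in juvenile replicates 1 to 4 and at 161, 233, 202 and 147 CPM in adult replicates 1 to 4. All adult libraries were above all juvenile libraries, and juvenile replicate 4 was the only juvenile library over 65.3 CPM. The adult mean was 2.52-fold the juvenile mean, and in juvenile over adult *Col8a1* fell by 1.34 on the log2 scale (SE 0.18, adjusted p = 0.000704 by edgeR's quasi-likelihood test), a call kept in all 18 alternatives.

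*Col8a2*, which encodes the partner chain, was at 6.39, 5.68, 8.21 and 5.47 CPM in juvenile replicates 1 to 4 and at 45.4, 6.55, 24.8 and 46.5 CPM in adult replicates 1 to 4. Adult replicate 2 lay within the juvenile range, whereas adult replicates 1, 3 and 4 were above it. The log2 fold change of -2.27 had an SE of 0.56 and did not pass the test (adjusted p = 0.0592, edgeR). Without adult replicate 2 it was -2.60 (adjusted p = 2.3e-05). The 2 chain genes thus varied differently among the adult libraries: *Col8a1* was highest in replicates 2 and 3, and *Col8a2* in replicates 1 and 4. The ratio of their CPM per kb of exon (*Col8a1* over *Col8a2*) was 2.03, 20.4, 4.66 and 1.81 in adult replicates 1 to 4, against 4.45 to 10.6 in juvenile libraries.

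**Figure D3:**
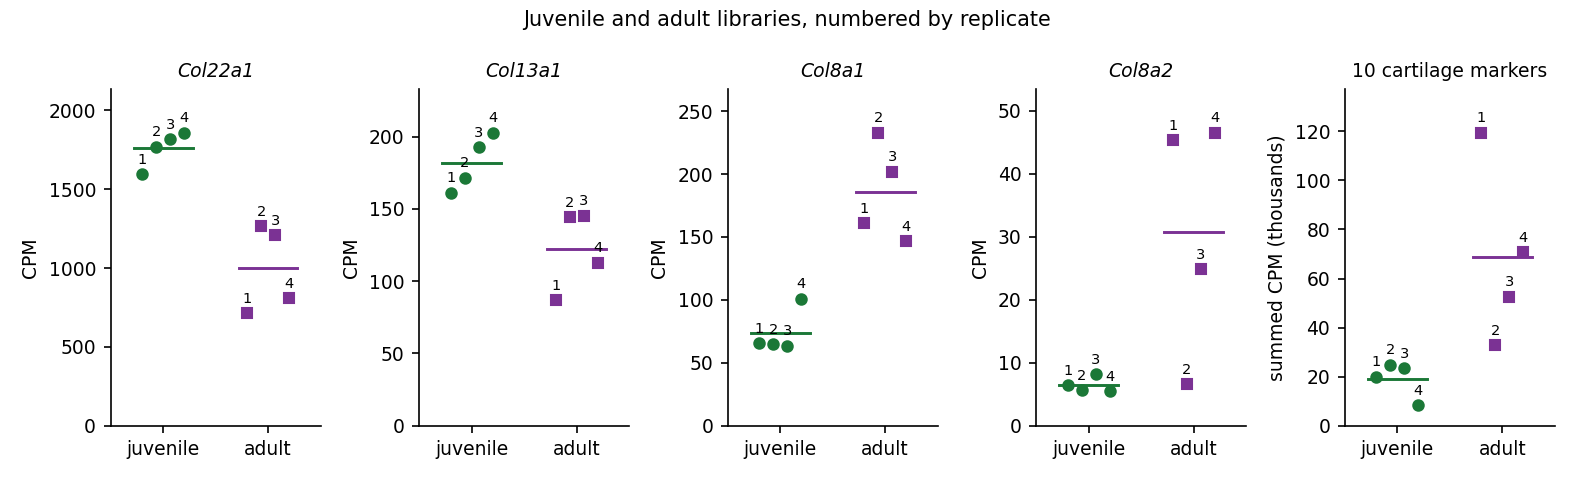
*Col22a1*, *Col13a1*, *Col8a1* and *Col8a2* (CPM) and the summed level of 10 cartilage markers (CPM, divided by 1000) in juvenile and adult libraries, each point 1 library with its replicate number and each bar a group mean. Juvenile and adult libraries do not overlap in *Col22a1*, *Col13a1*, *Col8a1* and the marker sum, and adult replicate 2 has the lowest marker sum and the lowest *Col8a2* of the adult libraries. The share of all genes that do not overlap between these groups was not counted.

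*Col12a1* was at 1971, 1569, 1315 and 1716 CPM in juvenile replicates 1 to 4 and at 3005, 1827, 1923 and 2095 CPM in adult replicates 1 to 4. The groups overlapped, and the log2 fold change of -0.44 (SE 0.17) did not pass the test (adjusted p = 0.158). *Col16a1*, a FACIT known from fibrils of skin and cartilage, was at 203–222 CPM in juvenile libraries and at 307, 182, 229.8 and 347 CPM in adult replicates 1 to 4. The juvenile libraries lay within the adult range. The fitted log2 fold change was -0.33 (SE 0.16 with an adjusted p of 0.277), and without adult replicate 2 it was -0.47 and passed the test (adjusted p = 0.0457).

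The low members gave wider errors. *Col23a1* was at 2.56, 4.95, 2.78 and 3.60 CPM in juvenile replicates 1 to 4 and at 2.13, 0.677, 0.776 and 2.35 CPM in adult replicates 1 to 4. The groups did not overlap, yet the difference did not pass the test (log2 fold change 1.20, SE 0.56, adjusted p = 0.247). *Col26a1* was at 4.93, 5.99, 5.42 and 0.497 CPM in juvenile and at 1.52, 1.69, 4.14 and 5.86 CPM in adult replicates 1 to 4, with juvenile replicate 4 the lowest of the 8 libraries at 4 counts. The fitted difference on the log2 scale was 0.35 (SE 0.60, adjusted p = 0.819). *Col20a1* was at 0.373–2.23 CPM in juvenile and 0.518–1.28 CPM in adult libraries and was not tested. Its exons overlap those of a non-coding gene on the same strand (*9230112E08Rik* in the count table), so its counts are uncertain.

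Markers of other cells moved with age as well. The summed chondrocyte markers were at 119383, 32736, 52530 and 70699 CPM in adult replicates 1 to 4 and at 20004, 24916, 23501 and 8430 CPM in juvenile replicates 1 to 4, so the groups did not overlap. Among the 10 markers 0 rose and 1 (*Col2a1*) fell in juvenile over adult, with a median log2 fold change of -1.91. Adult replicates 1 and 4, the richest in these markers, were the lowest adult libraries in *Col22a1*, *Col13a1* and *Col8a1*. They were the highest in *Col12a1*, *Col16a1*, *Col8a2* and *Col23a1*. In a fit without these replicates, chosen after seeing the data, *Col22a1* (log2 fold change 0.51, adjusted p = 0.0190) and *Col8a1* (-1.56, adjusted p = 6.47e-05) still passed edgeR's test. *Col13a1* did not (0.33, adjusted p = 0.238), and *Col16a1* turned to 0.047. *Col8a2* (-1.28, adjusted p = 0.132), *Col12a1* (-0.19, adjusted p = 0.573) and *Col23a1* (2.23, adjusted p = 0.162) did not pass edgeR's test in this fit either. The summed tendon, ligament and periosteal markers were 93.7, 222, 224 and 88.0 CPM in adult replicates 1 to 4, higher than in every juvenile library. Most of this sum was *Thbs4*, at 78.3, 205, 203 and 63.3 CPM in these replicates, the same split of libraries as in *Col8a1*. Of the 4 markers tested, 2 fell in juvenile over adult (*Thbs4* and *Dpt*). The tendon factor gene *Scx* went the other way and rose (log2 fold change 0.91, adjusted p = 0.0248, edgeR). Of the 7 osteoblast markers, *Sp7* (log2 fold change 0.43, adjusted p = 0.04996) and *Dmp1* (1.04, adjusted p = 0.0122) rose in juvenile over adult by edgeR's test. These went in the direction of *Col22a1* and *Col13a1*. The other 5 did not pass the test: *Ibsp*, *Phex* and *Runx2* lay above 0, and *Alpl* (-0.21) and *Bglap* (-0.25) below 0. The median of the list was 0.43. Of the 2 haematopoietic markers tested, *Lyz2* fell (-4.28, adjusted p = 0.00221, edgeR), and *Cd68* was at 0.64 and did not pass (adjusted p = 0.738, edgeR). The part of these cells in the differences was not tested, and in bulk libraries fewer cells of a type and less RNA per cell cannot be told apart.

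The comparison of *c-Myc*-induced with juvenile osteoblasts addressed the response to *c-Myc* in *Osx*+ cells. Most members were strongly lower after induction, the FACIT genes *Col12a1*, *Col16a1* and *Col22a1*, both collagen VIII genes and the transmembrane collagen gene *Col13a1* among them, and no member rose. Of the 10 members, 9 were tested and 8 fell (edgeR adjusted p under 0.05 and a change of 1 or more on the log2 scale), against 16% of 12588 genes tested. The median log2 fold change was -2.35 over the 9 members and 0.04 over all genes tested. The induced mice differed from the juvenile mice in more than genotype. Their age at dissection was 5 weeks by the protocol, and the diaphysis was trimmed at about 5 mm instead of 2 mm. Both sexes were used instead of males, tamoxifen was given fewer times, and more days had passed since it. The paper also states that such mice, or pregnant females, drank doxycycline or tetracycline until 2 or 1 weeks before analysis. Induction and these conditions cannot be told apart.

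*Col12a1* was at 197 and 217 CPM in the *c-Myc* libraries, against 1315–1971 CPM in juvenile libraries. Its juvenile mean was 7.94-fold the *c-Myc* mean (log2 fold change -3.01, SE 0.16, adjusted p = 3.4e-08 by edgeR's quasi-likelihood test). *Col16a1* was at 26.1 and 27.7 CPM against 203–222, a 7.93-fold ratio of means (log2 fold change -3.01, SE 0.12, adjusted p = 6.34e-09 by the same edgeR test). These FACIT genes fell by nearly the same factor. *Col22a1* was at 367 and 449.6 CPM against 1596–1858, a 4.31-fold ratio of means (log2 fold change -2.13, SE 0.11, adjusted p = 2.2e-08 by edgeR).

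*Col8a1* was at 10.6 and 18.8 CPM in *c-Myc* libraries against 63.7–101 in juvenile libraries (log2 fold change -2.35, SE 0.26, adjusted p = 9.11e-06, edgeR). *Col8a2* was at 0.457 and 0.227 CPM, which are 10 and 4 counts, against 5.47–8.21 CPM, or 44 to 70 counts. It had the most negative log2 fold change of the 9 members in this comparison (-4.20, SE 0.53, adjusted p = 3e-05, edgeR). *Col13a1* was at 24.3 and 32.8 CPM against 161–203, a 6.37-fold ratio of means (log2 fold change -2.69, SE 0.16, adjusted p = 5.52e-08, edgeR). All 6 of these genes kept their calls in the 16 alternatives tried.

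*Col23a1*, which encodes a transmembrane collagen that binds integrins, was at 0.868 and 1.64 CPM against 2.56–4.95 (log2 fold change -1.49, SE 0.52, adjusted p = 0.0293, edgeR). Its call was lost without *c-Myc* replicate 1 (adjusted p = 0.262) or 2 (0.0592) or juvenile replicate 2 (0.0674), with library totals (-0.68, adjusted p = 0.277), and with all 12 libraries in 1 fit (0.0771). *Col26a1* was at 0.822 and 1.25 CPM against 4.93, 5.99, 5.42 and 0.497, so that juvenile replicate 4 was below both *c-Myc* libraries (log2 fold change -2.05, SE 0.78, adjusted p = 0.0431, edgeR). Its call was lost without *c-Myc* replicate 1 (adjusted p = 0.233) or 2 (0.123) or juvenile replicate 1 (0.0810), 2 (0.104) or 3 (0.0684), and with library totals (-1.26, adjusted p = 0.187), under which 6 members fell in place of 8. *Col20a1* was at 0.457 and 0.907 CPM against 0.373–2.23, within the spread of the juvenile libraries (log2 fold change -0.87, SE 0.85, adjusted p = 0.411).

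**Figure D4:**
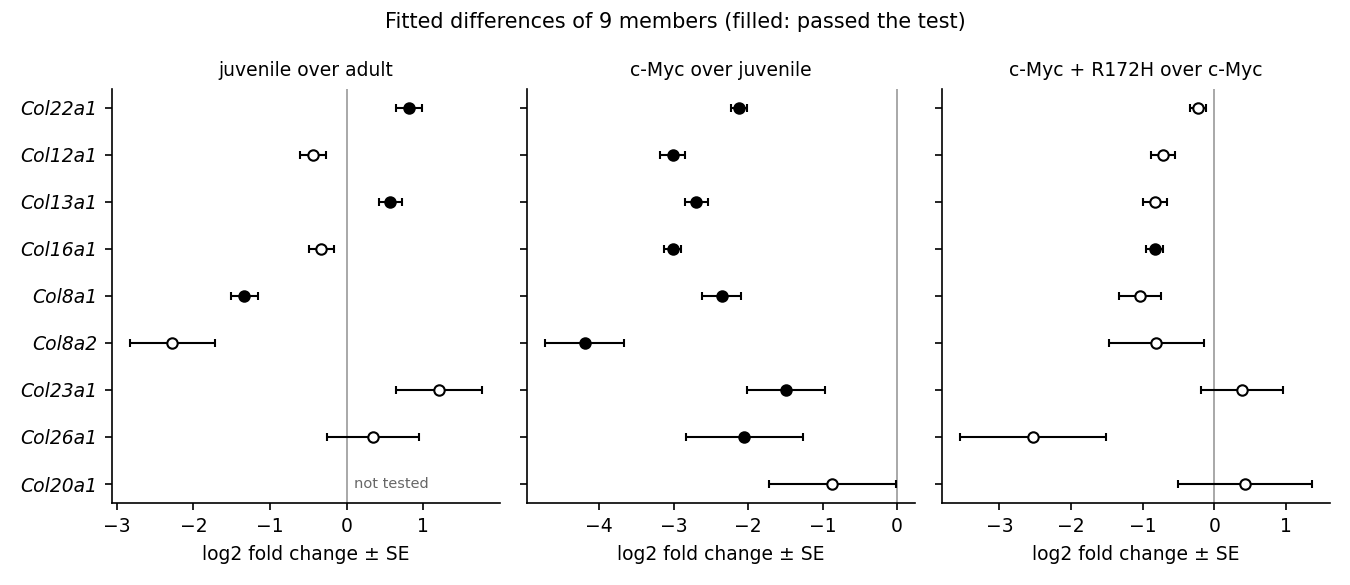
Fitted log2 fold change ± SE of 9 members in 3 comparisons, filled where the member passed the test of that comparison. In *c-Myc* over juvenile all 9 lie below 0, whereas in juvenile over adult *Col22a1*, *Col13a1*, *Col23a1* and *Col26a1* lie above 0.

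Markers of several other cell types moved with induction. All 10 chondrocyte markers fell (median log2 fold change -5.63), as did 5 of 7 osteoblast markers (median -1.92), 3 of 6 marrow stromal markers (median -1.29) and 2 of the 3 tested tendon, ligament and periosteal markers (median -1.30). The haematopoietic markers went the other way, at 9.87 and 11.1 summed CPM against 0.457–4.59 in juvenile libraries. Of the 2 tested, the myeloid gene *Lyz2* rose (log2 fold change 4.23, adjusted p = 0.000380, edgeR), and *Cd68* was at 1.24 (adjusted p = 0.142). The part of cell makeup in the lower collagen levels was not tested.

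With *Trp53-R172H* added to *c-Myc*, *Col16a1* fell further, and the other members tested did not pass the test. Of 9 tested members, 7 had a negative log2 fold change and 1 (*Col16a1*) fell by the test, whereas 0.461% of 12588 genes tested fell (edgeR adjusted p under 0.05). The median log2 fold change was -0.81 over the members and -0.00 over all genes tested. *Col16a1* was at 13.5 and 15.9 CPM in *c-Myc* + *R172H* libraries against 26.1 and 27.7 CPM in *c-Myc* libraries, a 1.82-fold ratio of means (log2 fold change -0.84, SE 0.12, adjusted p = 0.0103, edgeR). Its call was lost without *c-Myc* replicate 2 (adjusted p = 0.118) or *c-Myc* + *R172H* replicate 1 (0.156), with library totals (-0.63, adjusted p = 0.513) and with all 12 libraries in 1 fit (0.227), and in the last pair of settings 0 members were called. With the replicate number as a block, 4 members fell by edgeR's test: *Col16a1*, *Col13a1* (adjusted p = 0.000404), *Col12a1* (0.00816) and *Col8a1* (0.0149). The block puts induced libraries of like sex together, but it also holds the male juvenile libraries of the same number. It is therefore not a term for sex, and the genes called with it are given below.

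*Col13a1* was at 14.3 and 17.3 CPM against 24.3 and 32.8 (log2 fold change -0.82, SE 0.17, adjusted p = 0.0594, edgeR), and without *c-Myc* replicate 1 it passed the test (-1.06, adjusted p = 0.0260). *Col12a1* was at 135 and 111 CPM against 197 and 217 (-0.72, SE 0.16, adjusted p = 0.104), and *Col8a1* at 6.23 and 7.69 CPM against 10.6 and 18.8 (-1.04, SE 0.29, adjusted p = 0.250). The libraries of the groups did not overlap in these genes, nor in *Col16a1*, *Col22a1*, *Col8a2* and *Col26a1*. With 2 libraries per group this says little, and its share over all genes was not counted. *Col22a1*, at 335 and 351 CPM against 367 and 449.6, differed by -0.22 on the log2 scale (SE 0.11, adjusted p = 1), the value nearest to 0 among the members tested. *Col26a1* had 3 and 4 counts in the *c-Myc* + *R172H* libraries against 18 and 22 in the *c-Myc* libraries (-2.53, SE 1.02, adjusted p = 0.820, edgeR). *Col8a2* had 4 counts in each (0.183 and 0.199 CPM), *Col23a1* was at 1.56 and 1.64 CPM and *Col20a1* at 0.5035 and 1.29 CPM, and none of them passed the test.

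Set against juvenile osteoblasts, which also served as the controls of the *c-Myc* comparison, 7 of 9 tested members fell in *c-Myc* + *R172H* osteoblasts, against 17.9% of 12588 genes tested (edgeR adjusted p under 0.05 and a change of 1 or more on the log2 scale). The median log2 fold change was -3.52 over the members and 0.08 over all genes tested. *Col12a1* was at -3.73, *Col16a1* at -3.85, *Col22a1* at -2.35, *Col8a1* at -3.39, *Col8a2* at -5.01, *Col13a1* at -3.52 and *Col26a1* at -4.58. *Col23a1* (-1.11, adjusted p = 0.0804) and *Col20a1* (-0.44, adjusted p = 0.675) did not pass the test. Markers of other cells moved here as well. All 10 chondrocyte markers (median -6.98), 5 of 7 osteoblast markers (median -2.59), 5 of 6 marrow stromal markers (median -2.26) and all 3 tested tendon, ligament and periosteal markers (median -1.49) fell, and *Lyz2* rose (2.95, adjusted p = 0.00547, edgeR). In *c-Myc* + *R172H* over *c-Myc* 0 of 10 chondrocyte markers passed the test (median -1.31), and 1 of 6 marrow stromal markers, the leptin receptor gene *Lepr*, fell (-1.08, adjusted p = 0.00983). The part of these cells in the collagen levels was not tested.

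Other genes of the same matrix were counted from 3 lists. Related FACIT, short-chain and transmembrane collagens outside the group numbered 7, of which 5 passed the filter. None of these 5 passed the test with age (median log2 fold change -1.74), all 5 fell in *c-Myc* over juvenile (median -5.70), none passed in *c-Myc* + *R172H* over *c-Myc* (median -1.32), and all 5 fell in *c-Myc* + *R172H* over juvenile (median -7.02). *Col10a1* of hypertrophic cartilage, at -6.33, and *Col25a1*, which encodes a transmembrane collagen, at -1.14, were the ends of the range in *c-Myc* over juvenile. *Col9a1* and *Col10a1* are also among the chondrocyte markers. The other collagen IX genes, *Col9a2* (-5.87) and *Col9a3* (-5.67), lay close to *Col9a1* (-5.70) in *c-Myc* over juvenile. With age they were at -1.74 and -1.86, against -1.89 for *Col9a1*. The medians of this list are therefore not independent of those of the chondrocyte markers.

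Fibrillar collagens, whose fibrils FACITs decorate, together with fibril-binding and other matrix proteins numbered 14, and 13 were tested. With age none rose and 2 fell in juvenile over adult, fibronectin gene *Fn1* (log2 fold change -0.69, adjusted p = 0.0493) and fibromodulin gene *Fmod* (-1.73, adjusted p = 0.0271), and the median was -0.01. Both genes were highest in adult replicate 1 (9326 and 1761 CPM) and lowest in adult replicate 2 (4633 and 497 CPM). These are the adult libraries with the highest and lowest summed chondrocyte markers, whose part in the calls was not tested. *Col1a1*, the main fibrillar collagen gene of bone, differed by 0.64 on the log2 scale (adjusted p = 0.148). In *c-Myc* over juvenile 12 of 13 fell (median -2.61), from *Comp* at -5.40 to *Fmod* at -1.78, whereas the tenascin gene *Tnc* was at -0.00 (adjusted p = 0.990). In *c-Myc* + *R172H* over *c-Myc* 6 of 13 fell (median -1.05), with *Lum* at -1.82 and *Fmod* at 0.16 as the ends. In *c-Myc* + *R172H* over juvenile 12 of 13 fell (median -3.51). Collagen receptors numbered 8. With age 7 were tested and 1 fell (*Ddr1*, -0.93, adjusted p = 0.0133, median of the list 0.04). *Ddr1* too was highest in adult replicate 1 and lowest in adult replicate 2 among the adult libraries. In *c-Myc* over juvenile 4 of 8 fell (median -1.08), from *Itga11*, an integrin subunit for fibrillar collagen, at -2.46 to *Ddr1* at -0.48, which did not pass. None of the 8 passed in *c-Myc* + *R172H* over *c-Myc* (median -0.07), and 3 fell in *c-Myc* + *R172H* over juvenile (median -1.11).

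Genes whose levels were most like those of a member were taken by Pearson's r of log2(CPM + 1) over the 12 libraries, among 11276 genes tested in both the age and the induction fits. The libraries fall into the 4 groups, so a high r mostly states that the groups differ alike, and no test is given. *Col12a1* was most like *Fkbp9* (r = 0.995) and *P4hb* (0.993), which encode proteins of collagen folding and hydroxylation in the endoplasmic reticulum. *Col16a1* was most like *Aebp1* (0.997) and *Lama4* (0.995), which encode matrix proteins, and *Col13a1* most like *Cgref1* (0.997) and *Dchs1* (0.996). *Col22a1* was most like *Dab2ip* (0.994) and *Mical3* (0.993). *Col8a1* was most like *Islr* (0.991) and *Igfbp4* (0.988), and *Col8a2* most like *Prnp* (0.986) and *Fmod* (0.986). *Col26a1*, a low member, had lower values, with *Ufm1* (0.940) and *Lysmd4* (0.922) nearest to it. Between members, r was 0.991 for *Col12a1* and *Col16a1*, 0.831 for *Col12a1* and *Col22a1*, and 0.0935 for *Col23a1* and *Col8a1*.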

How the data were processed

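Raw counts per gene, without normalization, were deposited by the authors, who had trimmed the reads (cutadapt 4.6), mapped them to mm10 (STAR 2.7.11a) and kept unique alignments for HTSeq 2.0.5. The strand setting of the counting is not given in the sources used here. Members were matched by gene name, and exon lengths and coordinates were taken from GENCODE on GRCm38. The members and gene lists were chosen with earlier results of these data known.

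Tests were run on all genes in R 4.3.3 with edgeR 4.0.16 (TMM, default expression filter, robust quasi-likelihood F test, Benjamini-Hochberg adjustment at 0.05). The age fit used the 8 juvenile and adult libraries, and the other comparisons shared a fit of the 8 juvenile and induced libraries, where calls over juvenile also needed a change of 1 or more on the log2 scale. SE was taken as the size of the fitted difference over the root of its F statistic, an approximation. The procedure was tested on simulated data. Counts of replicates differed by more than sampling noise (chi-square per degree of freedom 5.75 to 147). The text names all members, the ends of each list and the 2 most similar genes of each member tested in both fits, except for *Col23a1*, for which they are not reported here. *Fn1*, *Col1a1*, *Tnc*, *Ddr1*, *Col9a2* and *Col9a3*, where not at an end, *Xist* and single cell type markers were named after their values were seen. Alternatives included DESeq2 1.42.0. Detection limits cover counting error only.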

Additional observations from a re-analysis of the deposited data

Results flagged for a closer look

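*Col8a1* in juvenile replicate 4 stood apart from the other juvenile libraries, at 100.9 CPM against 65.3 CPM in the nearest library, a gap of 0.957 of the whole range of the group. Chance marks about 1 in 20 such groups, and 18 groups of member values were examined. Without this library the log2 fold change of *Col8a1* in juvenile over adult was -1.53 (adjusted p = 0.000298, edgeR), against -1.34 with it. The same library had the lowest summed chondrocyte markers of the juvenile group (8430 CPM), and the part of these in its *Col8a1* level was not tested.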

How the results depend on the processing

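In juvenile over adult, 3 members and 581 genes were called. The genes called were 977 with no filter on low counts, 1094 with all 12 libraries in 1 fit, 1000 with DESeq2, 222 without adult replicates 1 and 4, and 284 to 885 with 1 library left out, and the members called were then 2 to 5, with 5 without adult replicate 2. *Col16a1* reversed to 0.047 without adult replicates 1 and 4. *Col8a2* was called with DESeq2 (adjusted p = 0.00314) and with all 12 libraries in 1 fit (0.0101), and *Col12a1* with library totals (0.0488) and no filter (0.0279).

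In *c-Myc* + *R172H* over *c-Myc*, 1 member and 59 genes were called. The members called were 0 with library totals and with all 12 libraries in 1 fit, 4 with no filter, DESeq2 or only the groups compared, and 0 to 2 with 1 library left out. The genes called were 12, 22, 222, 208 and 629 in these settings in turn (library totals, all libraries, no filter, DESeq2, only the groups compared) and 8 to 55 with 1 library left out. Same-numbered libraries deviated together with correlations from -0.10 to 0.07 in juvenile and adult and of 0.21 in the induced groups, which are 2 pairs only, matched in sex by *Xist*. With 2 libraries in each induced group, both pairs give the same value by construction. It is therefore a single value and not comparable with those of juvenile and adult. The labels do not make the numbers pairs, and the main results carry no block. With the replicate block 4 members and 326 genes were called here, and in juvenile over adult 3 members and 434 genes. With 1 library left out, *Col20a1* ranged from -0.43 (without *c-Myc* + *R172H* replicate 2) to 0.96 (also -0.017 without *c-Myc* replicate 1) and *Col23a1* from -0.042 (without *c-Myc* replicate 1) to 0.88.

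In *c-Myc* + *R172H* over juvenile, 4724 genes were called, and 7132 with library totals. *Col20a1* reversed there to 0.59 with library totals, and with 1 library left out it ranged from -1.29 to 0.061 (without *c-Myc* + *R172H* replicate 1). Library totals moved the median log2 fold change of all genes to -0.24 in juvenile over adult (53 genes higher and 793 lower, against 214 and 367), 0.87 in *c-Myc* over juvenile (5234 and 700, against 2320 and 2010), 0.21 in *c-Myc* + *R172H* over *c-Myc* and 1.12 in *c-Myc* + *R172H* over juvenile (6264 and 868, against 2466 and 2258). The cause of these differences was not tested. With 2 libraries per induced group, and under 60 counts per library for *Col23a1*, *Col26a1* and *Col20a1*, small differences were not detectable at this depth.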
